A study of Mus musculus with 4 samples.

Results

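The tripartite motif (Trim) genes were followed through a map of chromatin contacts made in mouse macrophages. Members were the autosomal protein-coding genes of the GENCODE M21 basic annotation whose symbol is Trim followed by a number and an optional letter. The rule gave 68 genes, or 0.328% of the 20720 autosomal protein-coding genes. An interaction was assigned to a gene when either of its 5-kb bins held a protein-coding transcription start site (TSS) of that gene, and such bins are called promoter bins. The Trim promoter bins held an end of 425 of the 237102 listed interactions. A Trim gene was called clustered when a TSS of another Trim gene lay within 500 kb of its own, which placed 30 genes in 8 loci, and the other 38 were called solitary.

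Most Trim proteins are ubiquitin ligases built from a RING domain, B-box zinc fingers and a coiled coil. A C-terminal region follows that differs between subfamilies and often recognizes the substrate. The largest subfamily ends in a B30.2/SPRY domain and includes capsid-binding restriction factors and regulators of RNA and DNA sensing, many of which are induced by interferon. Smaller subfamilies carry a bromodomain and act on chromatin, carry NHL repeats and bind RNA, or carry a COS box and bind microtubules. SPRY members have multiplied by tandem duplication, so that groups of similar genes lie side by side in the genome.

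The cells were bone marrow-derived macrophages (BMDMs) from C57BL/6J mice, differentiated for 7 days with M-CSF, the growth factor of the macrophage lineage. Of the 4 samples, 2 were left untreated (basal) and 2 received interleukin-4 (IL-4), which drives the alternatively activated state, at 20 ng/mL over 24 hours. H3K4me3 HiChIP, which ligates DNA ends that are close in the nucleus and enriches fragments carrying the promoter mark H3K4me3, was performed on each. The list analysed merges all 4 samples, so no value below has a replicate error, the 2 conditions cannot be told apart, and depth per library is not known.

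For each bin pair the list gives the observed read-pair count, the count expected from the model and a false discovery rate (FDR). Listed pairs with a promoter bin of any autosomal protein-coding gene lay 10 to 1000 kb apart, and their lowest count was 5. Every one of these pairs had more read pairs than 2 times the expected number. The macrophage markers Mertk, Spi1, Adgre1, Csf1r and Lyz2 had 42, 36, 25, 14 and 13 interactions, Cd68 had 4 and Itgam had 1. None of 4 T cell markers (Cd3d, Cd3e, Cd3g and Cd8a) had any, nor did the B cell markers Pax5 and Cd79a, whereas Ms4a1 had 1. Of 4 neutrophil markers, S100a8 had 3 and Mpo had 1, and of 4 fibroblast markers, Pdgfra had 4.

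Promoter sequences are shown first, because the likeness of clustered promoters bears on what sequencing could see there and because many Trim genes are known interferon targets. RefSeq start sites on GRCm38.p6 were matched for 53 of the 68 genes. The interferon-stimulated response element, the DNA site bound by interferon-activated factors, was searched as GAAA, any 2 bases and GAAA on both strands from 250 bases before to 50 bases after each start. It was found in 8 of 25 clustered promoters, or 32.0%, and in 1 of 28 solitary promoters, or 3.57%, beside 4.05% of 15696 protein-coding genes. Among the 8, the promoters of Trim5, Trim12a and Trim12c are near copies of one another, as are those of Trim30a and Trim30d, so the 8 are not independent. In the 250 bases before the start alone, the numbers were 5 of 25 clustered and 0 of 28 solitary promoters, beside 3.55% of all genes. The runs of 30 bases around each element are given 5′ to 3′ on the strand of the gene, with the letters of the element in capitals and with overlapping elements merged.
Trim5, chr7:104288136-104288165, minus strand: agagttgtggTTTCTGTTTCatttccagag
Trim12a, chr7:104315466-104315495, minus strand: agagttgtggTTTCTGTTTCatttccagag
Trim12c, chr7:104353359-104353388, minus strand: agagttgtggTTTCTGTTTCatttccagct
Trim30a, chr7:104465210-104465239, minus strand: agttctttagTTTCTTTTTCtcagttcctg
Trim30d, chr7:104507871-104507900, minus strand: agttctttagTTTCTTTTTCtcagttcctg
Trim34a, chr7:104244457-104244486, plus strand: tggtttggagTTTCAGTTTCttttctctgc
Trim21, chr7:102565447-102565476, minus strand: ctgagagGAAACTGAAAGTGAAAtttggac
Trim26, chr17:36836979-36837008, plus strand: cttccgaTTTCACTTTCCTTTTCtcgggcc
Trim2, chr3:84212791-84212820, minus strand: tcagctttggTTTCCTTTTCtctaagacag

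The run is the same in Trim5 and Trim12a and the same in Trim30a and Trim30d. A start of Trim30a inside the gene, at another RefSeq transcript, held a further copy. The element began 29 bases before the annotated start of Trim12c, 36 before that of Trim30a, 41 before that of Trim30d, 49 before that of Trim5 and 160 before that of Trim26. In Trim12a and Trim34a it began at base 11 after the start, in Trim21 at base 14 and in Trim2 at base 29, so that its place depends on which start was annotated. Trim30a and Trim30d were identical at 92.2% of 245 aligned bases of the 250 before the start. These were:
Trim30a, chr7:104465194-104465443, minus strand: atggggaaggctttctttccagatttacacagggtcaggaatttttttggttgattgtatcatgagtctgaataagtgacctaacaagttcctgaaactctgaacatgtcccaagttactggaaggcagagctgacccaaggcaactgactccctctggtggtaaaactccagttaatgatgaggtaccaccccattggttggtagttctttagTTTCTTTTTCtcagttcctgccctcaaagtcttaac
Trim30d, chr7:104507850-104508099, minus strand: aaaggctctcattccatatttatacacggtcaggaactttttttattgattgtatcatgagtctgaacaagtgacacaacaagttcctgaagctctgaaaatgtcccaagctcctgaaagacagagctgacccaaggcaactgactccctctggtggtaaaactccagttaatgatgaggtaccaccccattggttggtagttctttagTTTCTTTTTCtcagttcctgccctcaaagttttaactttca
Trim5 and Trim12c were identical at 95.2% of 230 aligned bases. The 9 genes with the element had between 0 and 20 interactions, namely 20 for Trim2, 14 for Trim34a, 7 for Trim26, 3 for Trim12a, 1 for Trim30a and 0 for Trim5, Trim12c, Trim21 and Trim30d. The letters GAGGAAGT, the core recognized by the macrophage factor PU.1, were found before the start of 5 of the 53 genes (Trim2, Trim5, Trim12a, Trim12c and Trim24), or 9.43%, beside 2.66% of all genes, and 3 of these 5 are near copies of one another. The copy of the response element in Trim2 lies at a start whose promoter bin had none of its 20 interactions. A match to these letters is a description of sequence and not of binding.

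Of the 68 Trim genes, 37 (54.4%) had at least 1 interaction, whereas 63.2% of all autosomal protein-coding genes did. The median was 1 interaction per Trim gene (quartiles 0 and 7), against 2 for all genes (quartiles 0 and 11). Interactions were unevenly spread in both sets. The mean was 6.29 and the maximum 75 in Trim genes, against a mean of 8.79 and a maximum of 204 in all genes. The share held by leading genes was computed for the Trim genes only. The 10 leading genes held 300 of the 428 gene-by-interaction assignments (70.1%), and Trim8 alone held 17.5%. Besides the 9 genes with 17 or more, 13 genes had 5 to 14 interactions, 9 had 2 to 4, 6 had exactly 1 and 31 had none. Under a wider promoter definition, with a TSS within 2500 bp of the bin, the shares with an interaction were 70.6% of Trim genes and 70.4% of all genes, and with interactions limited to a ratio of at least 4 they were 39.7% and 42.3%. Genes with 10 or more interactions made up 22.1% of the Trim genes (15 of 68) and 27.3% of all genes.

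**Figure D1:**
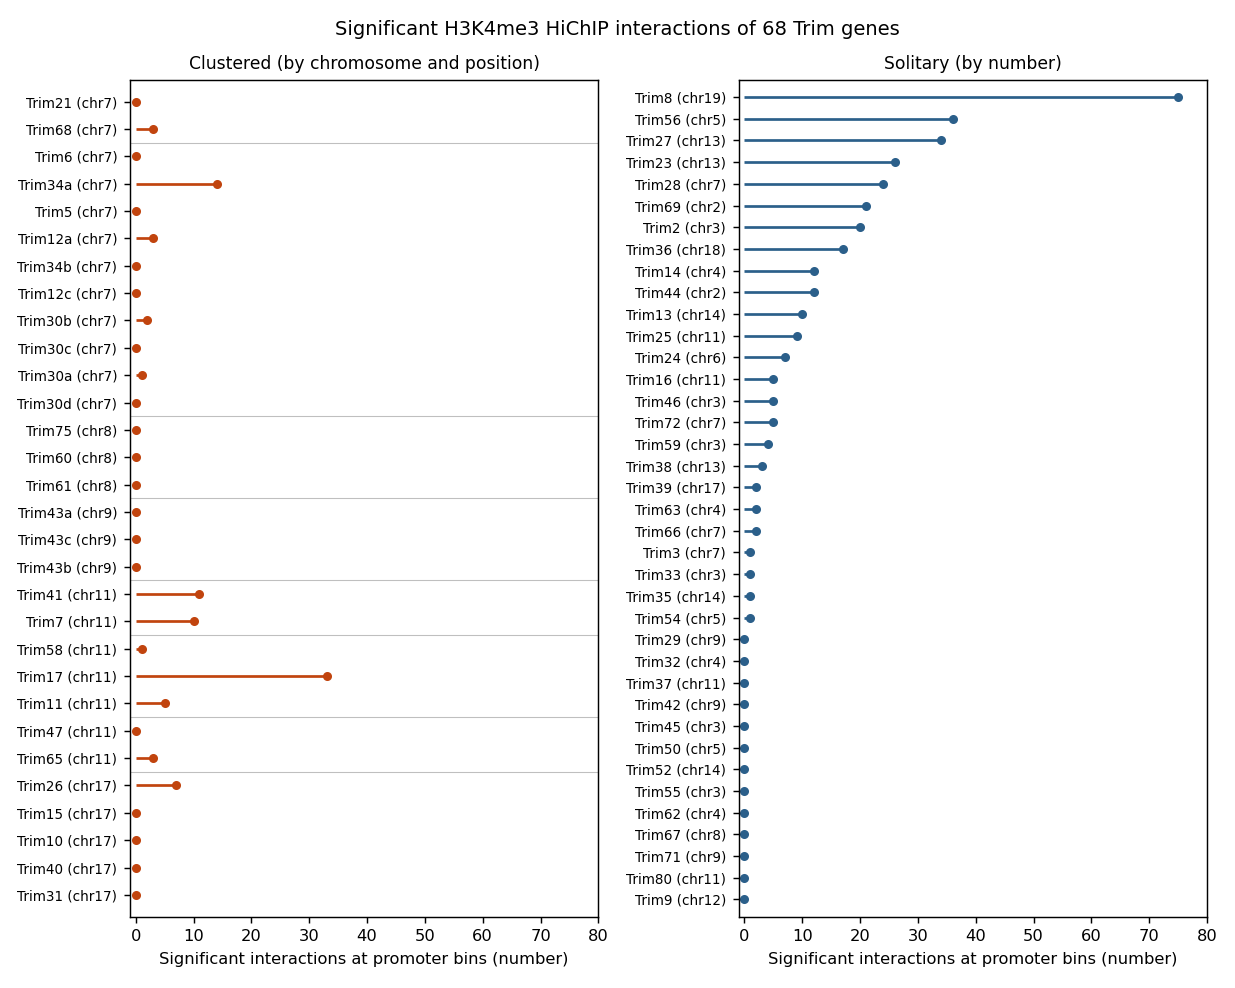
Number of significant H3K4me3 HiChIP interactions at the promoter bins of each of the 68 Trim genes, with clustered genes on the left in genome order (lines separate the 8 loci) and solitary genes on the right in order of number. Trim8 has the most with 75, Trim17 has the most of the clustered genes with 33, and 18 clustered and 13 solitary genes are at 0.

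The division was uneven between clustered and solitary members. Of the 30 clustered genes, 12 (40.0%) had an interaction, with a median of 0, an upper quartile of 3 and a maximum of 33. Of the 38 solitary genes, 25 (65.8%) had one, with a median of 2, an upper quartile of 11.5 and a maximum of 75. The solitary share lay near the 63.2% of all genes and the clustered share lay below it. With 100 kb in place of 500 kb, 24 genes were clustered and the shares were 41.7% clustered and 61.4% solitary, and with 1 Mb, 32 genes were clustered and the shares were 40.6% and 66.7%. Among genes that had any interaction, the medians were 4 in clustered genes, 7 in solitary genes and 7 in all genes. Genes are not replicates of a condition and neighbours in a locus share reads and sequence, so these are counts in 1 merged list without a test.

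**Figure D2:**
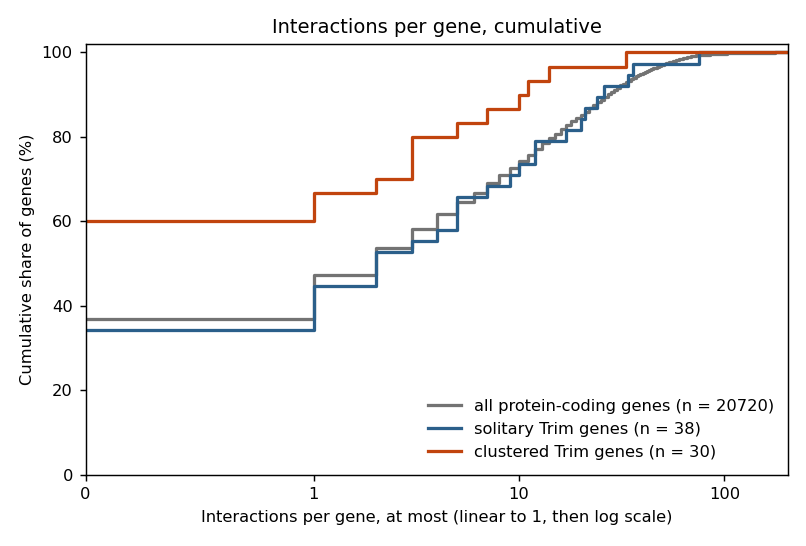
Cumulative share of genes (%, vertical axis) with at most the number of interactions on the horizontal axis, which is linear up to 1 and logarithmic above, for clustered Trim genes, solitary Trim genes and all protein-coding genes. The solitary curve runs close to that of all genes, and the clustered curve starts higher because 18 of the 30 clustered genes are at 0.

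Clustered and solitary promoters differed in other measured ways. The median promoter bin of clustered genes held 47.75 CpG dinucleotides, against 116 in solitary genes and 93 in all genes. Low-CpG bins were less often listed in the genome as a whole, since 29.1% of the 5890 genes under 60 CpG had an interaction, 75.5% of the 8200 genes with 60 to 120 and 78.3% of the 6630 genes with more. In those 3 classes, 4 of 16, 3 of 8 and 5 of 6 clustered genes had an interaction, and 3 of 5, 12 of 17 and 10 of 16 solitary genes did. The clustered genes thus lay below the solitary genes in the lower and middle classes and above them in the CpG-rich class, where 6 clustered genes were counted.

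Near-identical sequence also went with the clustered group. Reads that fit several places cannot be assigned to 1 of them, and the share of 75-base words found once in the genome gives a measure of this. Averaged over the promoter bins of a gene, that share was 90% or less in 10 clustered genes and in no solitary gene. It was lowest at Trim43c (52.5%), Trim43b (61.5%) and Trim43a (66.7%), and it was 76.3% at Trim34b, 78.6% at Trim5 and 78.7% at Trim12a. Of these 10 genes, Trim12a had interactions, and 24.6% of the 1888 such genes in the genome did. Counted by single bins, 12 clustered genes had a promoter bin at 90% or less, the other two being Trim7 and Trim30b. The low bin of Trim7, at 80.5%, had 8 interactions, and that of Trim30b, at 87.4%, had none. Among genes with a mean above 90%, 11 of 20 clustered (55.0%) and 25 of 38 solitary genes (65.8%) had an interaction, beside 67.1% of all such genes. Clustered genes also lay in denser surroundings, with a median of 40 protein-coding genes within 500 kb against 14 for solitary genes and 16 for all genes. The part of each of these features in the lower clustered share was not tested.

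**Figure D3:**
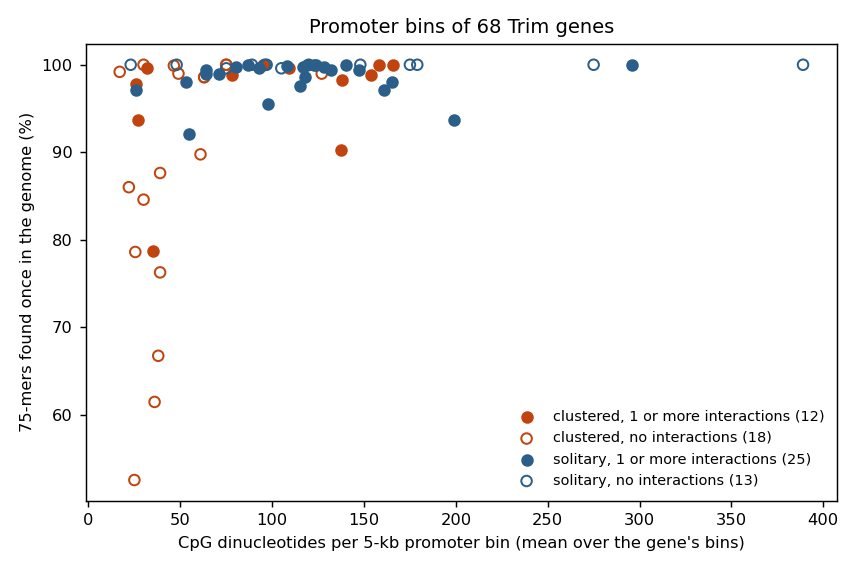
CpG dinucleotides per 5-kb promoter bin (horizontal axis) against the share of 75-base words found once in the genome (%, vertical axis) for 68 Trim genes, both as means over the bins of a gene, filled where the gene has an interaction and open where it has none. The 10 clustered genes at 90% or less all lie at 61 CpG or fewer, and 9 of them are open.

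Among signalling and antiviral members outside the clustered loci, Trim8 stood first. Trim8, a ligase that promotes JAK-STAT and NF-κB signalling, lies on chromosome 19 (46501702-46516848, mm10, plus strand) and had 75 interactions in 15 bin-pair clusters, rank 144 of all genes. Its partners were spread over both sides, 38 upstream and 37 downstream, and 33 lay within 100 kb. The highest count was 816 read pairs, with a bin over its own exons 10 kb away at a ratio of 2.75.

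Upstream of Trim8, 19 partner bins overlapped Sufu, a suppressor of Hedgehog signalling. The bin in Sufu exons 15 kb away had 619 read pairs against 121 expected, a ratio of 5.11. The highest ratio, 6.05, was found at a Sufu exon bin 55 kb away, with 252 read pairs against 41.6 expected (FDR 1.6e-105). The bin holding the start sites of Sufu and Actr1a, 105 kb away, had 344 read pairs and a ratio of 3.77. Downstream, 7 partner bins overlapped Arl3, with up to 361 read pairs. Exonic and intronic bins of other genes (32 and 30 of 75) outnumbered bins with a start site (6) among the partners. Over all promoter interactions, exonic (33.0%) and intronic bins (20.9%), own gene included, also outnumbered bins with a start site (13.7%).

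Trim56, an interferon-induced antiviral ligase, had 36 interactions on chromosome 5. They formed blocks on both sides, 20 upstream and 16 downstream, and only 1 lay within 50 kb. The highest count, 136 read pairs at a ratio of 4.00, was with the start of Ufsp1 next to Ache at 175 kb. The bin with the starts of Plod3 and Znhit1, 130 kb away on the other side, had 135 read pairs at a ratio of 2.06. A bin in an intron of Cux1 at 795 kb had the highest ratio, 6.38, from 18 read pairs. A start site lay in 11 of its 36 partner bins.

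Trim25, the ligase that acts on the RNA sensor RIG-I, showed a different layout with 9 interactions. Of these, 7 ran downstream within 50 kb, across its own exons and into Dgke. The bin at its own exon 10 kb away had 305 read pairs at a ratio of 2.09, and that at 25 kb had 267 at a ratio of 3.76. Trim14, an adaptor of the mitochondrial antiviral protein Mavs, had 12 interactions that all ran upstream. The highest count of Trim14, 223 read pairs at a ratio of 2.99, was with the start of Coro2a at 65 kb, and 5 of its partner bins overlapped Tbc1d2. Trim38, which acts on Tab2 and Tab3, had 3 interactions, the strongest with a Hist1h2be exon bin 180 kb away (44 read pairs, ratio 3.70).

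Trim23, which carries a GTPase domain of the ARF family, had 26 interactions from a promoter bin that also holds the start of Trappc13, so that these cannot be assigned to either gene. Of these, 8 lay within 50 kb, led by a bin in its own exons with 278 read pairs at a ratio of 2.62. A far group of 5 partner bins overlapped Cwc27 at 565 to 640 kb, with ratios up to 5.61. Trim44 had 12 interactions, all downstream and at 370 to 775 kb, with the highest count, 31 read pairs, at an exon of Commd9. Trim13, a ligase of the endoplasmic reticulum, had 10, all downstream, none with more than 20 read pairs. Of the 22 members with 5 or more interactions, 4 had every partner on 1 side (Trim13, Trim14, Trim24 and Trim44). The same share over all genes was not computed, so whether this is usual is not known.

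**Figure D4:**
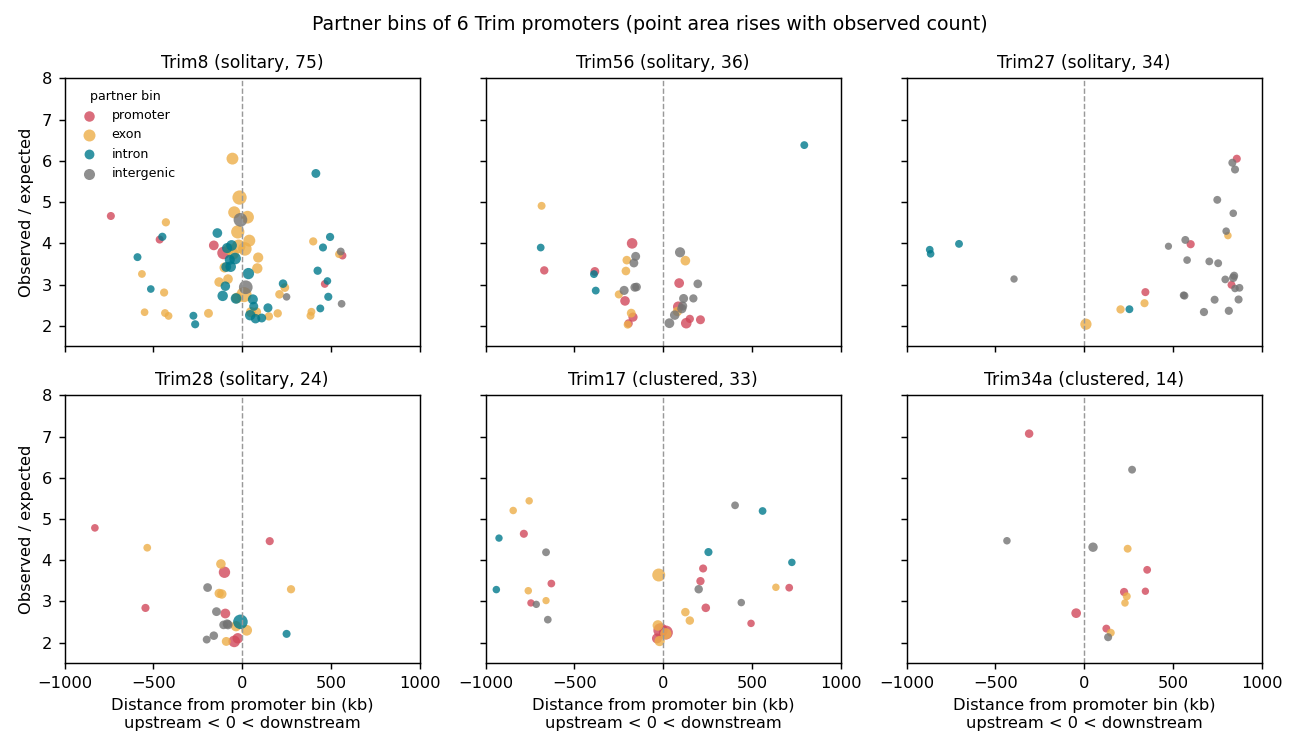
Partner bins of 6 Trim genes, with signed distance from the promoter bin (kb, negative upstream) on the horizontal axis, observed over expected ratio on the vertical axis, point area rising with the observed count and colour for what the partner bin overlaps. Trim8 has dense partners on both sides within 200 kb, Trim56 has separate blocks on each side, most Trim27 partners lie over 500 kb downstream, and Trim28 partners lie mainly upstream.

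Subfamilies were assigned by a list, without a check of protein domains, so their counts hold for the genes as listed. Of the 38 genes listed as having both a RING and a B30.2/SPRY domain, clustered ones included, 19 had an interaction. Their median was 0.5, beside 63.2% and a median of 2 for all genes. Trim27 and Trim69 were the solitary SPRY genes with the most interactions. Trim27, also known as ret finger protein, had 34 interactions from 2 neighbouring promoter bins (14 and 20). Their median distance was 752.5 kb, and 24 ran downstream over at least 500 kb into the region of the major histone gene cluster of chromosome 13. The bin with the starts of Hist1h2ah and Hist1h2bk, 860 kb away, had 22 read pairs at a ratio of 6.05. The bin with the starts of Hist1h1b and Hist1h3i at 600 kb had 26 read pairs at a ratio of 3.98. These 2 were its partner bins with a histone gene start, and 22 of the 34 interactions had an intergenic partner bin. A partner bin that paired with both promoter bins is counted from each. On the other side, 3 bins in introns of Elmo1 at 705 to 870 kb had 14 to 18 read pairs each.

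Trim69 had 21 interactions, 15 of them upstream. The strongest by count were at B2m, the light chain of MHC class I, with 473 read pairs at 10 kb (ratio 2.02) and 433 at the bin of the B2m start at 15 kb (ratio 2.53). A further 7 partner bins overlapped Spg11, including its start at 45 kb with 164 read pairs. The highest ratio, 5.22, was intergenic at 570 kb and rested on 12 read pairs. Trim72, a membrane repair protein of muscle, had 5 interactions, all with bins holding a start site. The one at 10 kb joined it to Pycard, the inflammasome adaptor ASC, with 271 read pairs at a ratio of 2.45.

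All 4 bromodomain members had an interaction, with a median of 4.5, beside 63.2% of all genes. Trim28, the corepressor of KRAB zinc finger proteins, led with 24, of which 20 ran upstream. The highest count, 688 read pairs at a ratio of 2.51, was 10 kb away in a bin over introns of Zbtb45 and of a longer Trim28 transcript. The start of Zfp446 at 45 kb had 223 read pairs at a ratio of 2.03. Trim24, a coregulator of nuclear receptors, had 7 interactions, all upstream and all intergenic, with 18 to 39 read pairs. Trim33, which acts in TGF-β signalling, had 1 with 17 read pairs at 70 kb, and Trim66 had 2, with the starts of Akip1 (28 read pairs) and Tmem9b (32 read pairs).

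Of the NHL repeat members, 2 of 4 had interactions, beside the same 63.2%. Trim2, a ligase for neurofilament light chain, had 20, and 18 of them came from 1 of its 5 promoter bins. Its highest ratio, 5.43, was found 130 kb away inside its own gene, at the start of Gm6525, with 53 read pairs. Trim3 had 1, intergenic at 895 kb with 10 read pairs. Trim32 and the stem cell regulator Trim71 had none, although the bin next to each promoter bin was listed.

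Of the COS box members, 4 of 7 (57.1%) had interactions, again beside 63.2%. Trim36 had 17, all from 1 of its 2 promoter bins. The highest count of Trim36, 282 read pairs at a ratio of 2.41, was inside its own gene, and a block of 7 partner bins at 375 to 420 kb covered Tmed7 and Eif1a, with 51 read pairs at the start of Ticam2, an adaptor of Toll-like receptor 4. Trim46 had 5 from a bin shared with Krtcap2. The muscle ligase genes Trim54 and Trim63 had 1 and 2. Trim9, Trim55 and Trim67 had none.

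The clustered locus with the most members held 10 Trim genes in 289.057 kb of chromosome 7 (104218793-104507849). Of these, 4 had an interaction. Trim34a, a homologue of a primate restriction factor, had 14, Trim12a had 3, Trim30b had 2 and Trim30a had 1, whereas Trim5, Trim6, Trim12c, Trim30c, Trim30d and Trim34b had none. Trim5 and Trim12c are relatives of the primate capsid-binding TRIM5, and Trim30a dampens Toll-like receptor signalling. In all, 25 listed interactions touched the locus and 15 had both ends inside it.

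Trim34a was an end of 14 of the 18 promoter interactions in the array. It contacted the start of Trim30a 225 kb away with 26 read pairs (8.05 expected, ratio 3.23, FDR 2.6e-06) and the start of Trim30b 125 kb away with 19 read pairs (8.11 expected, ratio 2.34, FDR 0.0021). Further partner bins overlapped an exon of Trim30c and, in 3 cases, exons of Trim30d. Outside the array, 4 of the partner bins held the start of an olfactory receptor gene, and the one at Olfr632, 310 kb upstream, had the highest ratio of the locus, 7.07 from 34 read pairs. Trim12a shared 2 of its 3 partner bins with Trim34a. The bin directly upstream of the Trim5 promoter bin had 67 read pairs with Trim34a and 30 with Trim12a, and the bin directly upstream of that of Trim30d had 18 and 10. Counts in the array were low throughout, with a highest value of 80, at the Olfr649 start 45 kb from Trim34a.

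**Figure D5:**
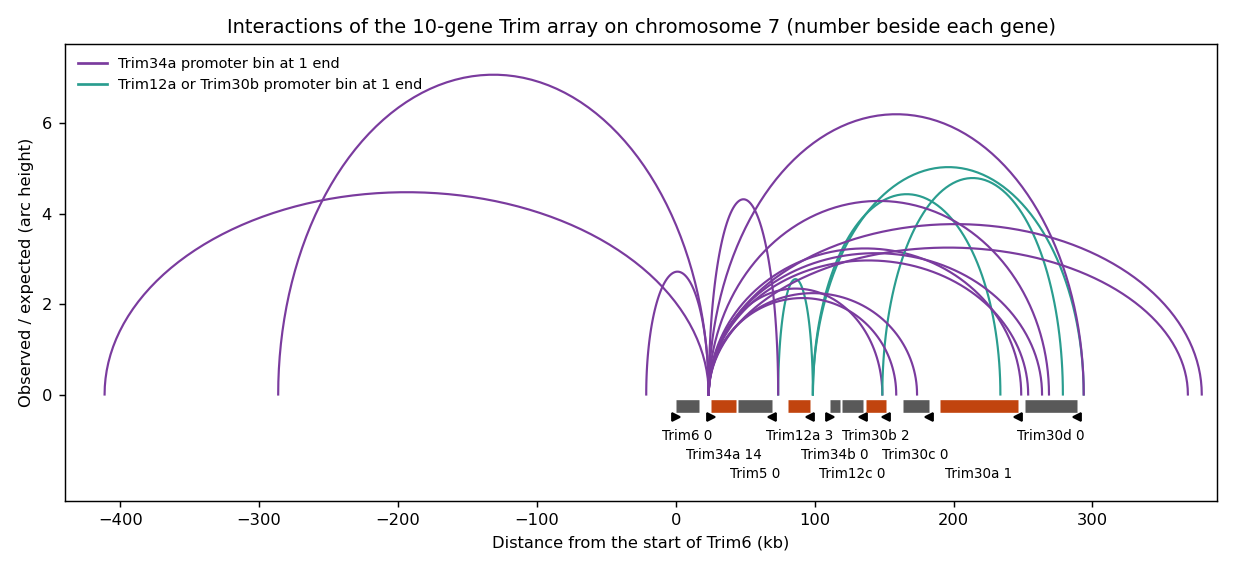
Listed interactions with an end in a promoter bin of the 10-gene Trim array on chromosome 7, drawn as arcs whose height is the observed over expected ratio, with distance from the start of Trim6 (kb) on the horizontal axis and genes as boxes (orange with and grey without an interaction, arrows at the start in the direction of transcription). Of the 18 arcs, 14 have an end at Trim34a, among them those to Trim30a and Trim30b, and no arc starts at 6 of the 10 genes.

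The clustered locus with the most interactions was that of Trim58, Trim17 and Trim11 on chromosome 11, with 38 distinct interactions. This locus spanned 351 kb with 19 other protein-coding genes in it, and Trim58 lay 314 kb from Trim17. Trim17, a ligase studied in neuronal apoptosis, had 33, or 35.5% of the clustered total of 93. Of these, 23 came from a bin shared with the histone gene Hist3h2a and 10 from its other promoter bin. The highest count was 629 read pairs with the start of Rnf187 at 15 kb (ratio 2.30), from the shared bin. The other bin contacted the promoter bin of Trim11 with 581 read pairs (259 expected, ratio 2.25, FDR 5.6e-64), which was the strongest by count of the 3 interactions between bins of different Trim genes. The same bin had 3 partners at 745 to 760 kb over Irgm2 and Igtp, which encode interferon-inducible GTPases, with 10 to 12 read pairs and ratios of 2.96 to 5.44. Trim11 had 5 interactions and Trim58, a ligase of red cell maturation, had 1.

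Trim41 and Trim7 lie head to head on chromosome 11, and Trim7 is a ligase that restricts enteroviruses. They had 11 and 10 interactions, and 8 of those of Trim7 came from a bin that also holds the start of Gm12184, so that they cannot be assigned to Trim7 alone. Both reached 240 to 285 kb into the region of Ifi47, an interferon-inducible GTPase gene overlapped by a long Olfr56 transcript, and on to Mgat1. They shared 4 partner bins, or 36.4% of those of Trim41 and 40.0% of those of Trim7. At a shared bin over exons of Ifi47, Trim41 had 44 read pairs (ratio 5.33) and Trim7 had 25 (ratio 5.42). The contact of Trim7 with a bin over Olfr1396 and Olfr56, 280 kb away, had the highest ratio of all Trim interactions, 8.11 from 28 read pairs against 3.45 expected, and came from the shared bin, in which 80.5% of 75-base words were unique. Trim41 reached 7.26 at a bin in Olfr56 at 285 kb, from 35 read pairs.

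In the other clustered loci few members were listed. In the locus of Trim26, Trim15, Trim10, Trim40 and Trim31 on chromosome 17, inside the MHC, Trim26 alone had interactions, 7 in number, and its highest ratio was 7.26 at an intergenic bin 535 kb away (18 read pairs). Trim31, a ligase for Mavs, lay 40 kb from the nearest listed bin. Of Trim47 and Trim65, Trim65, a ligase for the RNA sensor MDA5, had 3, led by the start of Wbp2 at 45 kb with 347 read pairs at a ratio of 3.62. Of Trim21 and Trim68, Trim68 had 3, whereas Trim21, the cytosolic antibody receptor, had none and lay 20 kb from the nearest listed bin. The loci of Trim60, Trim61 and Trim75 on chromosome 8 and of Trim43a, Trim43b and Trim43c on chromosome 9 had no interaction at a promoter bin, and the former held no listed bin at all.

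Partner bins of Trim promoters held a protein-coding start in 20.6% of 428 assignments, beside 13.7% over all genes. The share was 33.3% (31 of 93) for clustered and 17.0% (57 of 335) for solitary genes, and at a ratio of 4 or more it turned round to 6.67% and 15.2%. Of the 31, Trim17 held 11, Trim34a 6 and Trim11 4. Interactions between Trim genes were counted from both ends, so the 93 clustered assignments came from 90 interactions. Median distances were 252.5 kb for clustered, 210 kb for solitary and 190 kb for all promoter interactions. The order of clustered and solitary genes turned round with 1 interaction per bin-pair cluster (257.5 against 345 kb) and at a ratio of at least 4 (297.5 against 530 kb). The Trim share at 500 to 1000 kb was 24.7%, beside 17.0% for all genes, and Trim27 alone held 27 of these 105 interactions. Median ratios of 3.26, 3.03 and 2.99 in clustered, solitary and all genes lay close together, and ratios rose with distance over all promoter interactions, from a median of 2.46 at 10 to 50 kb to 4.02 at 500 to 1000 kb. No Trim interaction reached a ratio of 10, which 0.706% of all promoter interactions did.

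The 31 members at 0 also differed in how near they came. Of the 13 solitary genes at 0, 8 had a listed bin directly beside the promoter bin (Trim32, Trim37, Trim45, Trim50, Trim62, Trim67, Trim71 and Trim80), against 3 of 18 clustered genes (Trim5, Trim30d and Trim47) and 28.2% of all genes at 0. Median distances to a listed bin were 5 kb, 17.5 kb and 25 kb. Trim42, at 250 kb, lay farthest, and Trim9, Trim29, Trim52 and Trim55 lay 10 to 25 kb away. A promoter bin can be missing because it had no H3K4me3 peak, because no partner passed the threshold or because reads were not unique, and these cannot be told apart in the list.

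Genes that work with Trim proteins were more often listed than the Trim genes themselves. Of 30 entries for ubiquitin-conjugating enzymes and nucleic acid sensing, 28 matched a gene symbol and all 28 had an interaction, with a median of 13, beside 63.2% and a median of 2 for all genes. Tab2, an adaptor that Trim30a and Trim38 target, had 86, Mavs had 45 and the conjugating enzymes Ube2d2a, Ube2w and Ube2n had 39, 37 and 36. At the other end, the sensor genes Ddx58 (RIG-I) and Ifih1 (MDA5) and the conjugating enzyme Ube2d1 had 1 each, and Usp7, Usp18 and Herc6 had 2 each. Of 6 Trim family genes with other symbols, 5 had an interaction with a median of 2, with 11 at Rnf207, 2 at Pml and 0 at Mefv. The list was drawn from known partners and not from genes with matched promoters, so the difference from the Trim genes is a description.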

How the data were processed

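H3K4me3 HiChIP was performed by the authors on 2 basal and 2 IL-4-treated BMDM samples with the enzyme MboI. Per the submitters' notes and the study's methods, reads were aligned with Bowtie2 to mm10 and contacts were called with MAPS in 5-kb bins, with merged H3K4me3 ChIP-seq peaks as anchors, on all 4 samples merged. The deposited values are, per bin pair, an observed count of read pairs, an expected count (a signal from the authors' model, not a raw count), a false discovery rate (q-value), a cluster label, size and summit as other annotations, and a cluster −log10 p-value, which was not used. Ratio here means observed over expected.

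Bin pairs were joined to protein-coding TSSs of GENCODE M21 basic on the 19 autosomes with Python 3.11.15 and pandas 2.3.3, partners were classed by TSS, exon, intron or none in that order, and counts of genes and medians were compared by description, without a test, since the merged list holds no replicates. CpG dinucleotides and the share of 75-base words found once (every 10 bases, chromosomes 1 to 19, X and Y) were computed on GRCm38.p6, promoter letters from RefSeq with Biopython 1.88. The joins and the word search were tested on simulated data. Named genes were the 10 with the most interactions, all clustered genes and the members at 0. Also named were the interactions between Trim genes and the strongest by count and ratio. Others were named by subfamily after their values were seen. Some marker and partner genes are not reported here. The members, lists and comparisons were chosen with earlier results of these data known. Alternatives changed the FDR, the count and ratio minimum, bin-pair clusters, promoter width, the distance that makes a gene clustered and the genes that enter.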

Additional observations from a re-analysis of the deposited data

How the results depend on the processing

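No paired analysis was possible because the list merges all 4 samples, and the depth of each sample, which limits what could be listed, is unknown. Clustered genes had an interaction less often than solitary genes under each of 12 alternatives, and the difference of 25.8 percentage points ranged from 10.8 (promoter bins with over 90% unique words on average, an alternative added after the data were seen) to 36.8 (TSS within 2500 bp of the bin). The difference in medians, 2 interactions, became 4.5 with a TSS within 2500 bp, 1 with 1 interaction per bin-pair cluster, 1 with FDR under 1e-06, 1 with over 90% unique words and 0 with a ratio of at least 4. The Trim median of 1 became 3 within 2500 bp and 0 with 1 interaction per cluster, with FDR under 1e-06 or with a ratio of at least 4. The share of Trim genes with an interaction, 54.4%, became 70.6% within 2500 bp (all genes 70.4%) and 39.7% with a ratio of at least 4 (all genes 42.3%). The clustered minus solitary difference in median distance, 42.5 kb, became 132.5 kb with FDR under 1e-06 and 67.5 kb without lone bin pairs, and it turned to -87.5 kb with 1 interaction per cluster and to -232.5 kb with a ratio of at least 4. The difference in the share of partner bins with a TSS, 16.3 points, turned to -8.48 points with a ratio of at least 4. The cause of these changes was not tested. Of 46 values under alternatives, 30 stayed within set limits, 13 moved further and 3 turned round. The limit was 1.5 times the reported value, except for the share of Trim genes with an interaction and its clustered against solitary difference. For these it was a binomial interval, from 42.7 to 65.7% and from 2.01 to 45.9 points. The intervals treat genes as independent, which neighbours in a locus are not. The second is so wide that all 12 alternatives lay within it. Without the chromosome 7 genes the difference in shares was 22.9 points.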
